A study of Mus musculus with 6 samples.

Results

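Epithelial junction and cornification genes were followed through cultured mouse dermal fibroblasts. They were taken by symbol from a list of 35 epidermal genes other than keratins. The list holds 11 genes of the desmosome, 7 of the cornified envelope, 5 of adherens and tight junctions, 9 regulators and 3 of the cell surface and vesicle traffic. Of the 35 genes, 34 were among the 23407 genes of the deposited table, and 30 reached a mean of 10 normalised counts over the 6 libraries and were tested. Tgm3 was not analysed here. Pkp2, Lor, Flg and Epcam were below the minimum, so they are given by their values alone.

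Desmosomes are spot-like junctions that tie the keratin filaments of neighbouring epidermal cells together. Their cadherins, the desmogleins and desmocollins, bind across the gap, while plakoglobin, plakophilins and desmoplakin form the plaque inside. As keratinocytes move up through the epidermis they add envelope proteins such as involucrin and loricrin, which transglutaminases crosslink into the cornified envelope. The transcription factor p63 and the grainyhead-like factors are known regulators of this epithelial programme. Fibroblasts hold cells together mainly through other cadherins and are not known to build desmosomes or cornified envelopes.

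The study compared fibroblasts of mice labelled TSP2KO, which lack thrombospondin-2, with fibroblasts of wild-type (WT) mice, 3 libraries each. In both groups the cells were grown from dermis of the back of mice 12 weeks of age. Trypsin was used to lift off the epidermis and collagenase to free the cells, which were sampled at passage 1 after 3 to 5 days of culture. The labels used here do not describe the knockout construct, the strain or whether libraries came from separate animals, so p-values reflect how these libraries vary among themselves, and that variation may be technical. Values are counts per gene normalised per library by the authors, called normalised counts below, and estimated depth was 14776502 to 34599855 reads per library.

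Thbs2, which encodes thrombospondin-2 (chromosome 17, 14665500 to 14694235, minus strand, mm10), had 5177, 6635 and 4891 normalised counts in TSP2KO 1, 2 and 3, against 122061 and 116720 in WT 1 and WT 2 and 8841 in the library labelled WT 3. That library therefore went against its label at the targeted gene, and results that rest on it are given with and without it. Its log2 fold change, TSP2KO over WT, was -3.18 (SE 0.95, limma adjusted p = 0.318), and -4.43 (SE 0.22, limma adjusted p = 0.00257) without that library. Col3a1, a fibrillar collagen of dermal fibroblasts, had between 30166 and 112793 normalised counts in each library.

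Promoter sequences from RefSeq were matched to 14 of the 34 genes, and 4 are shown because the genes behaved differently here. Sfn had the highest level per length in 4 of the 6 libraries and, like most of the list, was highest in the library labelled WT 3, while Jup had the highest level per length in WT 1 and WT 2. Ivl and Lor both lie in the epidermal differentiation complex of chromosome 3, and only Ivl was above the minimum. Each run is the 250 bases before the RefSeq start on GRCm38.p6, read 5′ to 3′ on the strand of the gene, the minus strand for all 4. The positions are chr4:133602169-133602418 for Sfn, chr11:100397791-100398040 for Jup, chr3:92573736-92573985 for Ivl and chr3:92083143-92083392 for Lor. Capitals mark matches to the motifs named after the sequences.
Sfn: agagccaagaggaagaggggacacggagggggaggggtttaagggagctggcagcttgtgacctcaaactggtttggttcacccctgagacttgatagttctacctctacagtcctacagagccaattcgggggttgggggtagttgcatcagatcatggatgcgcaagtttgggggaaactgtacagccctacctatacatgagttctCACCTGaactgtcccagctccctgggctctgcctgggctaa
Jup: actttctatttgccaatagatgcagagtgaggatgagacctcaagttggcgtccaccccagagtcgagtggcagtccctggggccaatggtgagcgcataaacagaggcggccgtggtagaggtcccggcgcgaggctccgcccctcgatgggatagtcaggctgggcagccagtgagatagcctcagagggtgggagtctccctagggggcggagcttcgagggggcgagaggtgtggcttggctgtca
Ivl: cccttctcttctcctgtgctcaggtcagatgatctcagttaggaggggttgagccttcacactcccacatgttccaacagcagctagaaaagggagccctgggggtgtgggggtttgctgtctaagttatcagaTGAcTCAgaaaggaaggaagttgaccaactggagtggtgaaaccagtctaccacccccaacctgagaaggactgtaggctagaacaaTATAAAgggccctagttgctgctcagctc
Lor: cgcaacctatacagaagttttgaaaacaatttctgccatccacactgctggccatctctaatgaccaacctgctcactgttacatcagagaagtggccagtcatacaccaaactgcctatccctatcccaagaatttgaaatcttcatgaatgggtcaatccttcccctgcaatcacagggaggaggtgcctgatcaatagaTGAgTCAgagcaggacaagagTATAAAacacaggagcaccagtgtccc

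The motifs were searched on both strands of all 32851 RefSeq promoters of the same length. In Ivl and Lor the capitals mark a TATA motif (TATAAA), which ends 24 and 22 bases before the start, and an AP-1 motif (TGANTCA, N unmarked), which ends 110 and 42 bases before it. Flg, the other gene of this complex, held both motifs as well. AP-1 motifs were found in 4 of the 14 genes and in 6.75% of all promoters, and TATA motifs in 3 of 14 and in 12.4%. In Sfn the capitals mark an E-box of the type bound by SNAI and ZEB repressors (CACCTG), found in 5 of 14 genes and 17.2% of all promoters. The grainyhead-like motif ACCGGT was found in 1 of 14 genes, Epcam, and in 1.86% of promoters. The Jup window held none of these letters. A core motif of the p53 family was searched as well. It was found in 0 of 14 genes and in 0.49% of all promoters. A match describes the sequence and is not evidence of binding.

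The genes differed far more between libraries than between labels. Together the 34 genes had 9211, 8657 and 1032 normalised counts in TSP2KO 1, 2 and 3, against 1735 and 729 in WT 1 and WT 2 and 23704 in the library labelled WT 3. The highest sum was 32.5-fold the lowest, and both were labelled WT. Among the 30 tested genes, the library labelled WT 3 was the highest for 29, against 21.7% of all tested genes, and Jup was the exception. The 3 highest libraries were TSP2KO 1, TSP2KO 2 and the library labelled WT 3 for 27 of the 30, against 9.12% of all tested genes, with Jup, Cdh3 and Tgm1 as the exceptions. The minimum on the mean is itself reached mainly through these libraries, so these counts describe the libraries and are no test.

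**Figure D1:**
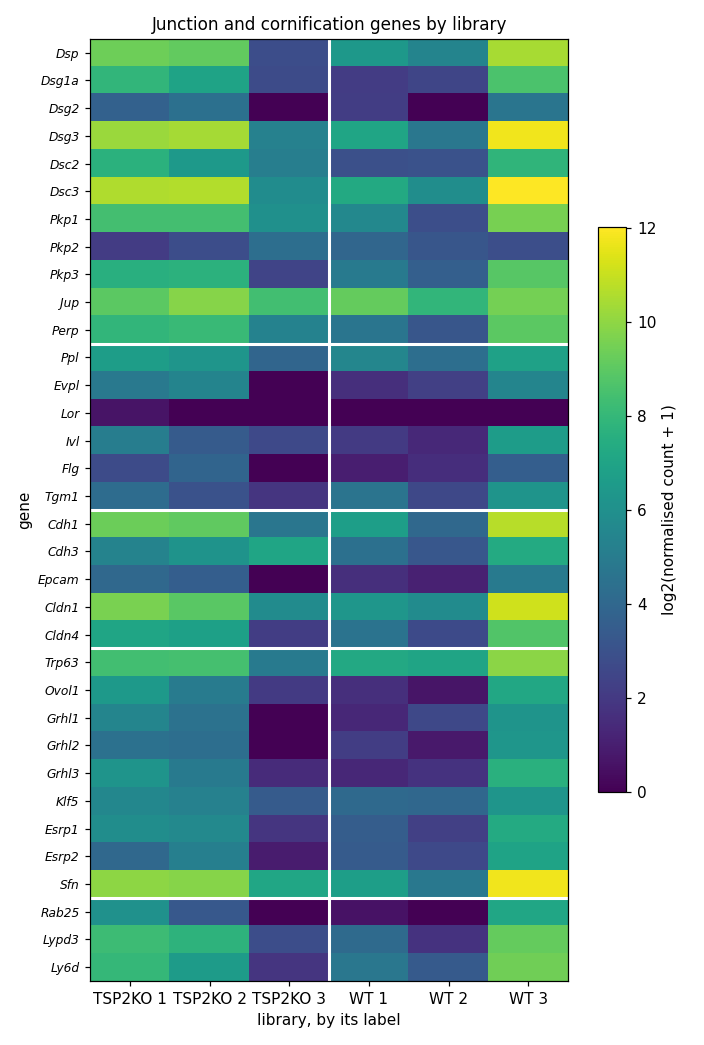
Colour shows log2(normalised count + 1) of each of the 34 genes (rows, in blocks for desmosome, cornified envelope, adherens and tight junction, regulators, and surface and trafficking) in each library (columns, TSP2KO left of WT). TSP2KO 1, TSP2KO 2 and the library labelled WT 3 are bright for most genes, while Lor is dark throughout and Jup is bright in all 6 libraries.

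The spread within a label was correspondingly wide. Across the 30 genes, the range of log2 values within TSP2KO had a median of 4.43 and within WT of 5.31, against 0.54 and 0.71 over all tested genes. Ranges above 3 log2 units were found within TSP2KO for 20 of the 30 genes, against 2.68% of all genes, and within WT for 26, against 3.46%. WT 1 and WT 2 differed as well, with 25 of the 30 genes higher in WT 1, against 6666 of all 14707 tested genes. The median log2 difference, WT 1 over WT 2, was 1.23 (2.35-fold) on the log2(value + 1) scale, against -0.05 over all tested genes. In bulk RNA, fewer cells of a type and less RNA per cell cannot be told apart.

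Most desmosomal cadherins were high in the same 3 libraries. 5 of them, Dsc3, Dsc2, Dsg1a, Dsg3 and Dsg2, lie within 643.6 kb of chromosome 18 (19960930 to 20604521). Dsc3, a desmocollin of basal and lower spinous keratinocytes, had 1530, 1559 and 57.0 normalised counts in TSP2KO 1, 2 and 3, against 155 and 59.2 in WT 1 and WT 2 and 4136 in the library labelled WT 3. Dsg3, the desmoglein targeted by autoantibodies in pemphigus vulgaris, had 1183, 1345 and 37.4 in TSP2KO 1, 2 and 3, against 132 and 26.3 in WT 1 and WT 2 and 3467 in the library labelled WT 3. For both genes TSP2KO 3 lay below or near WT 1 and WT 2, and the labelled groups overlapped. Dsg1a, one of several near-identical mouse desmoglein-1 genes and therefore uncertain, ranged from 5.62 to 236 in TSP2KO and from 3.41 to 393 in WT. Dsg2, the desmoglein most widespread in simple epithelia and heart, reached only 20.7 in TSP2KO and 24.4 in WT.

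Plaque genes split into those that followed the cadherins and those that did not. Dsp, which encodes desmoplakin, the link to keratin filaments, had 656, 561 and 6.23 normalised counts in TSP2KO 1, 2 and 3, against 84.5 and 41.2 in WT 1 and WT 2 and 1377 in the library labelled WT 3. Pkp1, Pkp3 and Perp, which encode epidermal plakophilins and a desmosome-associated membrane protein and p53 and p63 target, were also lowest in TSP2KO 3, WT 1 or WT 2. Jup, which encodes plakoglobin, a protein of both desmosomes and adherens junctions, had 514, 916 and 332 in TSP2KO 1, 2 and 3, against 585 and 239 in WT 1 and WT 2 and 721 in the library labelled WT 3. Its fold range over the 6 libraries was the narrowest of the listed junction and cornification genes with a value above 0 in every library. WT 1 lay above TSP2KO 1. Pkp2, the plakophilin of heart and simple epithelia, went the other way, with 3.45, 6.15 and 19.6 in TSP2KO 1, 2 and 3, against 14.4 and 8.24 in WT 1 and WT 2 and 6.41 in the library labelled WT 3. These Pkp2 levels were below the minimum for the test.

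Among the other junction genes, Cdh1 and Cdh3 are neighbours on chromosome 8 with 46.05 kb between them. Cdh1, which encodes E-cadherin, the adherens junction cadherin of epithelia, had 626, 549 and 24.9 normalised counts in TSP2KO 1, 2 and 3, against 107 and 15.7 in WT 1 and WT 2 and 1686 in the library labelled WT 3. Cdh3, which encodes P-cadherin of basal keratinocytes and hair follicles, had 40.8, 71.0 and 131 in TSP2KO 1, 2 and 3, against 20.6 and 8.63 in WT 1 and WT 2 and 160 in the library labelled WT 3. TSP2KO 3, low for Cdh1, was thus the highest TSP2KO library for Cdh3.

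The claudins, which seal tight junctions, followed Cdh1. Cldn1, needed for the epidermal water barrier, had 783, 491 and 54.3 normalised counts in TSP2KO 1, 2 and 3, against 77.3 and 54.9 in WT 1 and WT 2 and 2295 in the library labelled WT 3. Cldn4 had 134, 113 and 3.56 in TSP2KO 1, 2 and 3, against 23.2 and 5.49 in WT 1 and WT 2 and 431 in the library labelled WT 3. Epcam, a surface marker of simple epithelia, did not exceed 15.5 in TSP2KO or 28.9 in WT.

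The envelope genes of the list were low in every library. Of the 6 in the table, 4 were tested, and their highest value was 101 normalised counts in TSP2KO and 118 in WT, both for Ppl. Ppl, which encodes periplakin, a plakin that ties the envelope to desmosomes, had 101, 76.6 and 14.2 in TSP2KO 1, 2 and 3, against 45.3 and 19.2 in WT 1 and WT 2 and 118 in the library labelled WT 3. Ivl, which encodes involucrin, an early envelope scaffold, had 32.7, 10.1 and 5.34 in TSP2KO 1, 2 and 3, against 3.09 and 1.57 in WT 1 and WT 2 and 97.5 in the library labelled WT 3. Both were highest in that library, and TSP2KO 1 was the highest of the TSP2KO libraries.

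The enzyme and the other plakin of the envelope differed from each other. Tgm1, which encodes the crosslinking transglutaminase of keratinocytes, had 17.8, 7.27 and 2.67 normalised counts in TSP2KO 1, 2 and 3, against 23.7 and 5.10 in WT 1 and WT 2 and 73.8 in the library labelled WT 3. Evpl, which encodes envoplakin, the partner of periplakin, had 28.2, 41.4 and 0 in TSP2KO 1, 2 and 3, against 2.06 and 3.92 in WT 1 and WT 2 and 43.0 in the library labelled WT 3. WT 1 exceeded every TSP2KO library for Tgm1, but not for Evpl. Of the late genes, Lor, which encodes loricrin, the main protein of the mature envelope, was listed at 0 in all libraries except TSP2KO 1, with 0.575. Flg, which encodes filaggrin, reached 13.4 in TSP2KO 2 and 10.9 in the library labelled WT 3.

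All 9 regulators were tested, and Sfn was the highest in normalised counts in TSP2KO 1, 2 and 3 and the library labelled WT 3, while Trp63 was in WT 1 and WT 2. Sfn encodes 14-3-3 sigma (stratifin), a cell cycle inhibitor of keratinocytes, and had 1011, 917 and 138 normalised counts in TSP2KO 1, 2 and 3, against 104 and 27.5 in WT 1 and WT 2 and 3463 in the library labelled WT 3. Trp63, which encodes p63, had 334, 355 and 30.3 in TSP2KO 1, 2 and 3, against 150 and 127 in WT 1 and WT 2 and 965 in the library labelled WT 3. WT 1 and WT 2 were close together for Trp63, while for Sfn they differed by 3.79-fold.

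The grainyhead-like factors, Ovol1 and the splicing regulators were less abundant. Grhl3, a grainyhead-like factor needed for barrier formation, had 73.0, 29.7 and 1.78 normalised counts in TSP2KO 1, 2 and 3, against 1.55 and 2.35 in WT 1 and WT 2 and 194 in the library labelled WT 3. Esrp1, an RNA-binding protein that sets epithelial splice forms, had 58.0, 49.2 and 2.67 in TSP2KO 1, 2 and 3, against 10.8 and 3.92 in WT 1 and WT 2 and 160 in the library labelled WT 3. Grhl1, Grhl2, Ovol1 and Esrp2 had the same 3 libraries highest, with up to 86.4 in TSP2KO and 149 in WT, and Grhl1 and Grhl2 were at 0 in TSP2KO 3. Klf5, a Krüppel-like factor of basal epithelial cells, ranged only from 9.79 to 46.5 in TSP2KO and from 15.3 to 76.3 in WT. Reads of Esrp2, Ovol1, Grhl2 and Lypd3 cannot be told apart from those of overlapping genes on the other strand, since no source used here says whether counting took the strand into account, and Pkp1 and Flg overlap other annotated genes as well.

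The surface and trafficking genes had the widest range of the 5 groups, with sums 156.9-fold apart between the library labelled WT 3 and TSP2KO 3. The sum in TSP2KO 3 was only 8.90 normalised counts, where 1 read was worth 0.890, so this fold rests on few reads. Lypd3, a GPI-anchored surface protein of stratified epithelium, had 300, 219 and 6.23 normalised counts in TSP2KO 1, 2 and 3, against 16.996 and 2.35 in WT 1 and WT 2 and 586 in the library labelled WT 3. Ly6d, of the same domain family, had 256, 94.5 and 2.67 in TSP2KO 1, 2 and 3, against 25.8 and 9.41 in WT 1 and WT 2 and 675 in the library labelled WT 3. Rab25, a small GTPase of epithelial recycling endosomes, had 67.2, 8.95 and 0 in TSP2KO 1, 2 and 3, against 0.515 and 0 in WT 1 and WT 2 and 135 in the library labelled WT 3. TSP2KO 1 was above TSP2KO 2 for all 3 genes, 7.51-fold for Rab25, although the desmosomal sums of these libraries were close, at 5114 and 5454.

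The design asks whether these genes differ between TSP2KO and WT fibroblasts. None of the 30 tested genes passed an adjusted p under 0.05, and the lowest was 0.718, for Tgm1 (limma, 6 libraries, Benjamini-Hochberg over 14707 genes). Among all tested genes 0% passed as higher and 0.0612% as lower. At an unadjusted p under 0.05 the counts for these genes were 0 higher, against 3.66% of all genes, and 0 lower, against 6.09%. The labelled groups were free of overlap for 0 of the 30 genes, against 5.90% of all genes with TSP2KO higher and 8.27% with TSP2KO lower. The median SE of the log2 fold change was 1.65 for these genes and 0.30 over all genes. Fold changes beyond 2 log2 units were found for 0 of the 30 genes, against 0.558% of all genes above 2 and 1.87% below -2. A p above the threshold does not show that levels were alike.

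Fitted log2 fold changes, TSP2KO over WT on the log2(value + 1) scale, were positive for 22 and negative for 8 of the 30 genes, with a median of 0.38, against -0.01 over all tested genes, of which 48.5% were positive. Medians were 0.69 for the 10 desmosomal genes, 0.17 for 4 envelope genes, 0.44 for 4 junction genes, -0.03 for 9 regulators and 0.57 for 3 surface genes. Dsc2, a desmocollin found in many epithelia, had the highest value, with 109 ± 86.9 normalised counts in TSP2KO and 80.5 ± 128 in WT (SD, n = 3 each; log2 fold change 1.84, SE 1.34, limma adjusted p = 0.728). Tgm1 had the lowest, with 9.25 ± 7.76 in TSP2KO and 34.2 ± 35.5 in WT (SD, n = 3 each; log2 fold change -1.43, SE 1.01, limma adjusted p = 0.718). Dsp averaged 408 ± 351 in TSP2KO and 501 ± 759 in WT (SD, n = 3 each; log2 fold change -0.30, SE 1.96). In each of these genes the SD of at least 1 group was near or above its mean.

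The sign of these differences depended on single libraries. Without the library labelled WT 3, 29 of the 30 genes had a positive log2 fold change, against 47.5% of all genes, and the median was 1.88. Group medians were then 2.56 for desmosomal, 1.08 for envelope, 2.18 for junction and 2.84 for surface genes, and 1.41 for regulators. Of the 30, 8 then had an unadjusted p under 0.05 as higher, against 11.8% of all genes, and 0 as lower, against 12.7%. After adjustment 1 passed as higher, against 2.43%, and 0 as lower, against 2.75%. The log2 fold change was above 2 for 15 of the 30, against 2.02% of all genes. The gene that passed was Dsc2, with 205, 87.8 and 34.7 normalised counts in TSP2KO 1, 2 and 3, against 6.70 and 7.06 in WT 1 and WT 2 and 228 in the library labelled WT 3 (log2 fold change 3.46, SE 0.69, limma adjusted p = 0.0410 without that library). Each TSP2KO library lay above WT 1 and WT 2 for Dsc2. The median was 1.81 without TSP2KO 3, -0.37 without TSP2KO 1, -0.18 without TSP2KO 2, -0.30 without WT 1 and -0.60 without WT 2.

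**Figure D2:**
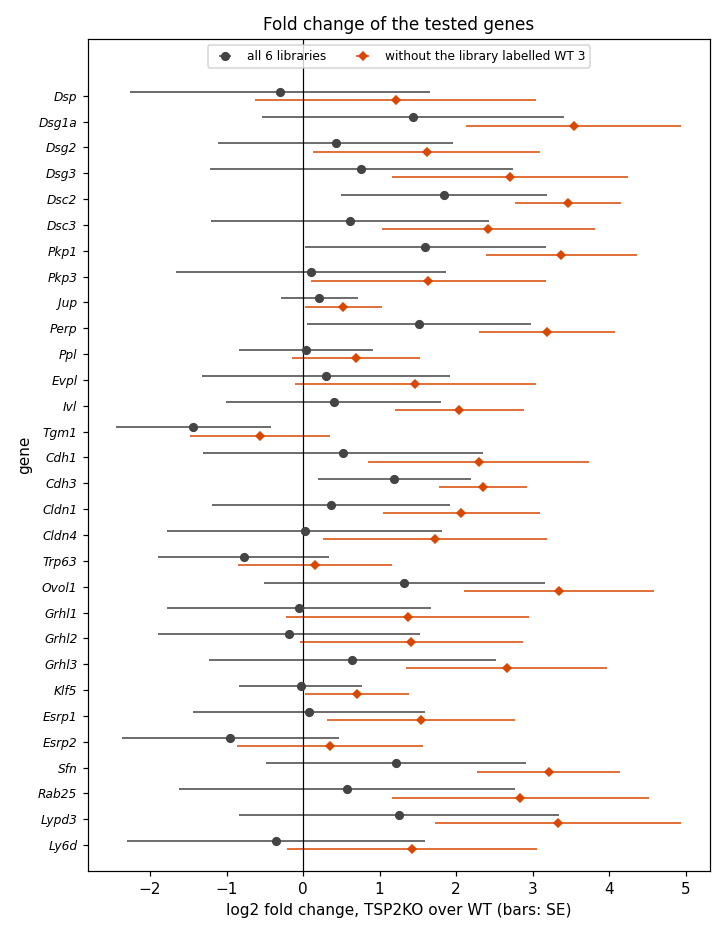
Points give the log2 fold change, TSP2KO over WT, of the 30 tested genes with all 6 libraries (circles) and without the library labelled WT 3 (diamonds), and bars are the SE. With all libraries the values spread about 0 with a median of 0.38, and without that library 29 of 30 are positive with a median of 1.88.

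Keratins were set beside these genes to see whether their proportions held. The basal keratins Krt5 and Krt14, which mark basal keratinocytes, were summed in each library, and each gene was expressed per 1000 of these counts. Dsc3 had 218, 224 and 276 per 1000 keratin counts in TSP2KO 1, 2 and 3, against 197 and 248 in WT 1 and WT 2 and 189 in the library labelled WT 3, a range of 1.46-fold. Dsg3 ranged over 1.76-fold, Cldn4 over 1.82-fold, Cdh1 over 2.07-fold, Pkp3 over 2.21-fold and Esrp1 over 2.32-fold. These 6 genes had the narrowest ranges among those above 0 in every library, and were picked after the ranges were seen. Their levels moved by up to 132-fold between WT 2 and the library labelled WT 3, the value for Dsg3. The sum of all genes of the list ranged over 4.61-fold relative to basal keratins. Cldn4, Pkp3 and Esrp1 had only 3.56, 4.45 and 2.67 normalised counts in TSP2KO 3. As 1 read was worth 0.890 there, their proportions in that library rest on few reads.

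Other genes ranged more widely relative to basal keratins. Jup had 73.2, 132 and 1610 per 1000 keratin counts in TSP2KO 1, 2 and 3, against 747 and 1002 in WT 1 and WT 2 and 33.0 in the library labelled WT 3, a range of 48.8-fold. Cdh3 ranged over 109-fold, with 635 in TSP2KO 3. Pkp2 ranged over 324-fold, Tgm1 over 28.9-fold, Klf5 over 18.3-fold and Ppl over 14.9-fold. Jup, Ppl and Klf5 were each lowest, relative to keratin, in the library labelled WT 3 and highest in TSP2KO 3 or WT 2, where keratins were lowest. Trp63 had 47.6, 51.1 and 147 in TSP2KO 1, 2 and 3, against 192 and 532 in WT 1 and WT 2 and 44.2 in the library labelled WT 3. Sfn lay between 115 and 158 in 5 libraries and at 669 in TSP2KO 3. All points share the libraries and the keratin denominator, so these ranges are a description.

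**Figure D3:**
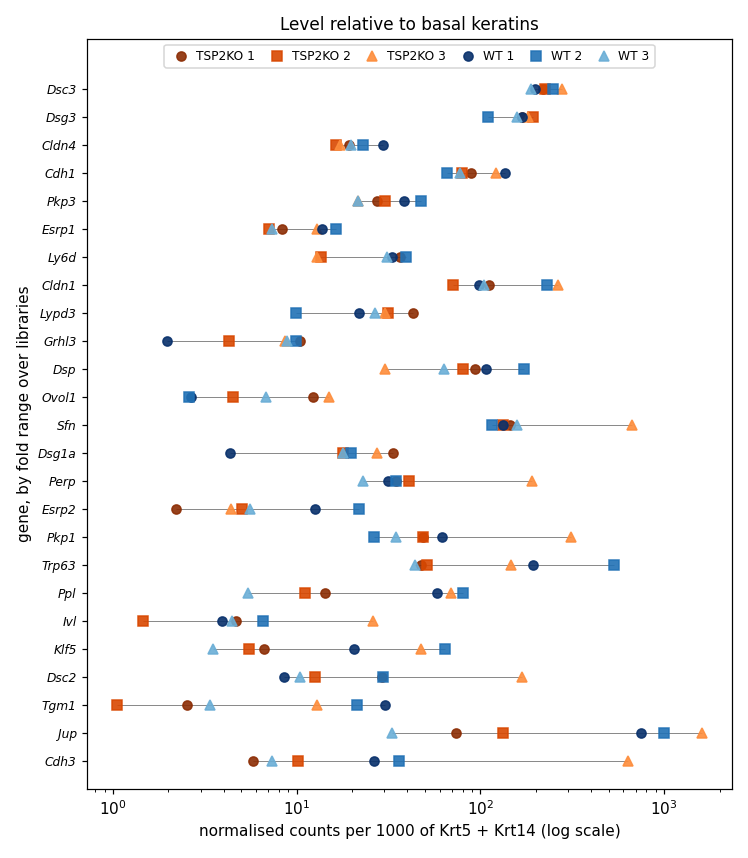
Each row is 1 of the 25 tested genes with a value above 0 in all 6 libraries, ordered by fold range, and points give its normalised counts per 1000 of Krt5 plus Krt14 in each library on a log axis. Points of Dsc3 lie within 1.46-fold of each other, while those of Jup and Cdh3 spread over 48.8-fold and 109-fold.

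Levels were compared between genes per kilobase of annotated exon. In TSP2KO 1 the highest was Sfn, with 627 normalised counts per kb, followed by Ly6d with 344 and Dsc3 with 283. In the library labelled WT 3 the order at the top was the same, with 2147 for Sfn, 907 for Ly6d and 765 for Dsc3. In TSP2KO 2 the top was Sfn with 568 and Dsc3 with 289, while in TSP2KO 3 Sfn with 85.6 and Jup with 51.6 led. Jup led in WT 1 and WT 2, with 90.9 and 37.2 per kb. Desmocollin Dsc3 exceeded desmoplakin per length in all 6 libraries, with 283, 289 and 10.5 against 67.9, 58.0 and 0.645 per kb in TSP2KO 1, 2 and 3, and 28.6, 10.96 and 765 against 8.74, 4.26 and 143 in WT 1, WT 2 and the library labelled WT 3.

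Many other epidermal genes were high in the same libraries. Of the 39 tested genes of 7 further epithelial lists, among them hemidesmosome, keratin, suprabasal and regulator genes, 27 had TSP2KO 1, TSP2KO 2 and the library labelled WT 3 as their 3 highest libraries, against 9.12% of all tested genes. Among those that did not, Krt10, a suprabasal keratin, ranged from 24.7 to 38.6 normalised counts in TSP2KO and from 17.5 to 28.9 in WT, and Klf4, a barrier regulator, from 142 to 261 in TSP2KO and from 141 to 285 in WT. Some of the 39 genes reached the minimum on the mean mainly through TSP2KO 1, TSP2KO 2 and the library labelled WT 3. The count of 27 therefore describes the libraries and is no test. Krt14 had 5061, 4727 and 157 normalised counts in TSP2KO 1, 2 and 3, against 553 and 180 in WT 1 and WT 2 and 15525 in the library labelled WT 3. The wound keratins Krt6a, Krt6b, Krt16 and Krt17, which keratinocytes make in culture and in wounds, summed to 9690, 6067 and 217 in TSP2KO 1, 2 and 3, against 697 and 186 in WT 1 and WT 2 and 25310 in the library labelled WT 3. Sprr1a, a small proline-rich envelope protein, had 873, 524 and 0.890 in TSP2KO 1, 2 and 3, against 28.8 and 14.9 in WT 1 and WT 2 and 1866 in the library labelled WT 3, well above Ivl and Lor in the 3 libraries where it was high. By limma, 0 of these 39 genes passed with all libraries, against 0% of all genes as higher and 0.0612% as lower. At an unadjusted p under 0.05 there were 2, each as higher, against 3.66% of all genes as higher and 6.09% as lower. Without the library labelled WT 3, 0 of 39 passed, against 2.43% as higher and 2.75% as lower. At an unadjusted p under 0.05 there were then 10, each as higher, against 11.8% of all genes as higher and 12.7% as lower. Among 10 junction genes of wider use, the catenins varied little, with Ctnna1, alpha-catenin, at 6504, 5769 and 6359 in TSP2KO 1, 2 and 3, against 7677 and 7915 in WT 1 and WT 2 and 7080 in the library labelled WT 3. The tight junction genes Ocln, Marveld2 and F11r and the nectin Nectin4 were instead highest in the library labelled WT 3, with Ocln between 1.78 and 59.2 in TSP2KO and between 1.18 and 137 in WT.

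Markers of other cell types moved in part with these genes. The 6 melanocyte markers summed to 846, 486 and 142 normalised counts in TSP2KO 1, 2 and 3, against 653 and 481 in WT 1 and WT 2 and 1356 in the library labelled WT 3, with at most 1 marker at 0 in a library. Of these 6 markers 4, the pigment genes Pmel, Dct, Tyrp1 and Tyr, were highest in the library labelled WT 3, while Sox10 was highest in WT 1 with 573 and Mlana in WT 2 with 107. The 6 endothelial markers, none at 0, summed to 1961, 1836 and 499 in TSP2KO 1, 2 and 3, against 1024 and 423 in WT 1 and WT 2 and 4459 in the library labelled WT 3. That library was the highest for 5 of the 6 endothelial markers, Cldn5 being the exception.

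Macrophage and fibroblast markers had other orders. The 12 macrophage markers, none at 0, summed to 699, 801 and 812 in TSP2KO 1, 2 and 3, against 5837 and 4872 in WT 1 and WT 2 and 3173 in the library labelled WT 3. Lyz2 made up most of each sum. The 12 markers were also averaged as log2 values, relative to the mean of all 6 libraries. These averages were 1.30 for WT 1, 1.19 for WT 2 and 1.24 for the library labelled WT 3. TSP2KO 1, 2 and 3 had -1.26, -1.22 and -1.25. Of the 12 markers, 5 reached their highest value under the label WT 3. The 10 fibroblast markers summed to 176434, 195714 and 339567 in TSP2KO 1, 2 and 3, against 421468 and 475262 in WT 1 and WT 2 and 214180 in the library labelled WT 3. The fibroblast sums, carried by collagens and Fn1, were lowest in the 3 libraries in which Krt14 and Dsc3 were highest, but the proteoglycan gene Dcn was lowest in TSP2KO 3, with 12200, 11095 and 2368 in TSP2KO 1, 2 and 3, against 50984 and 55417 in WT 1 and WT 2 and 38395 in the library labelled WT 3. Of the macrophage markers 1, C1qb of the complement C1q complex, passed as lower in TSP2KO, at a limma adjusted p of 0.0456 with a log2 fold change of -3.60 (SE 0.33), against 0.0612% of all tested genes, and 9 did without the library labelled WT 3, against 2.75%. The 5 hair follicle markers summed to 688, 1424 and 1424 in TSP2KO 1, 2 and 3, against 8337 and 7085 in WT 1 and WT 2 and 1080 in the library labelled WT 3. In all libraries but the one labelled WT 3, that sum was mostly Lgr5, a stem cell receptor. Lgr5 had 433, 1311 and 1385 in TSP2KO 1, 2 and 3, against 8235 and 7031 in WT 1 and WT 2 and 438 in the library labelled WT 3. Krt79 had 189, 17.3 and 3.56 in TSP2KO 1, 2 and 3, against 21.1 and 6.28 in WT 1 and WT 2. It had 505.5 in the library labelled WT 3, more than Lgr5. Of these 5 markers 3, Sox9, Krt79 and Lhx2, were highest in the library labelled WT 3, Lhx2 at no more than 3.21 in any library. The 4 Schwann cell markers summed to 6098, 4514 and 1968 in TSP2KO 1, 2 and 3, against 11380 and 10587 in WT 1 and WT 2 and 5161 in the library labelled WT 3. The 9 mesenchymal regulators summed to between 18354 and 31397, and Zeb2, a repressor of Cdh1 in other settings, had 5429, 3786 and 3691 in TSP2KO 1, 2 and 3, against 6004 and 5610 in WT 1 and WT 2 and 4488 in the library labelled WT 3. The 3 libraries highest for most junction genes were thus also the 3 highest for Krt5, Krt14 and the wound keratins. The same held for 4 of 6 melanocyte markers and 3 of 6 endothelial markers, while several fibroblast genes were low there. The part of these markers in the result was not tested.

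**Figure D4:**
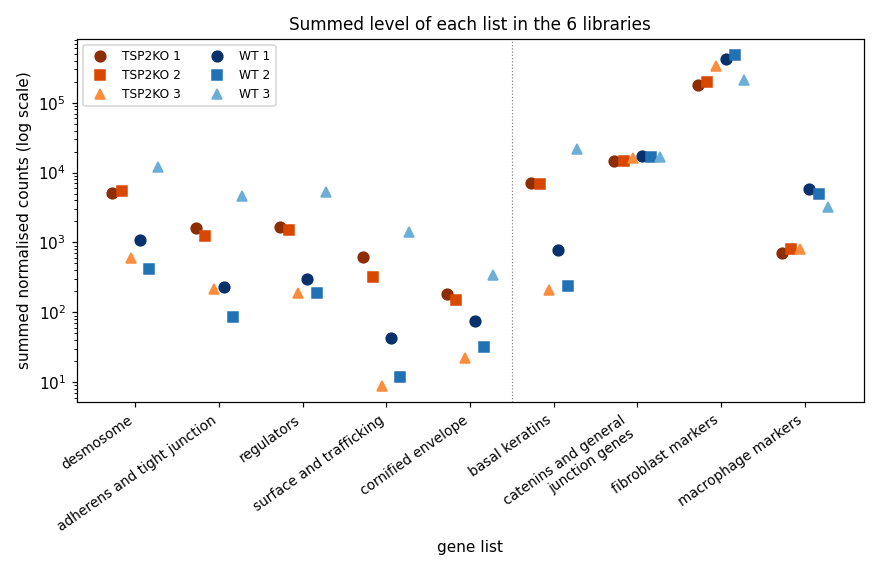
Points give the summed normalised counts of each gene list in the 6 libraries on a log axis, TSP2KO left of WT within each list, with the 5 groups of junction and cornification genes left of the dotted line. The library labelled WT 3 is the highest for those 5 groups and for basal keratins, while the sum of catenins and general junction genes, mostly catenins, lies between 14623 and 17364.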

How the data were processed

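Bulk RNA sequencing of poly(A) RNA was deposited by the authors as 1 table of normalised counts, a signal per gene in each of 6 libraries. The submitters' processing notes name the build mm10 and, with no role or order, the tools DESeq2, Partek and STAR. How reads were counted is not given in the sources used here. Values behaved as division by a size factor (median ratios of 0.997 to 1.02). Between 68.6% and 73.9% of values above 0 were whole multiples of the worth of 1 read within 0.02, so whole reads were not recovered and no count test was run. Genotype and number tied each column to its sample, since other parts of the names differ. Gene models of all 34 genes were identical to GENCODE M21, which gave exon lengths.

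Genes with a mean of at least 10 were tested with limma 3.58.1 in R 4.3.3 on log2(value + 1), with a mean-variance trend, two-sided, with Benjamini-Hochberg adjustment at 0.05, and the fit was tested on simulated data. Fold changes on this scale understate the change of low genes. Genes shown in every library were the up to 4 of each group with the highest mean, and others, such as Dsc2 and Pkp2, were chosen after their values were seen. Genes, lists and motifs were chosen with earlier results of these data known. Alternatives were other pseudocounts, filters and scaling, a replicate block and leaving out each library.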

Additional observations from a re-analysis of the deposited data

How the results depend on the processing

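None of the 30 genes passed under any alternative except without the library labelled WT 3, where 1 was called higher; the other settings were pseudocounts of 0.1 and 10, no filter, a mean of at least 100, TMM rescaling, the replicate block and leaving out each other library. Their median log2 fold change was 0.43 and 0.19 with pseudocounts of 0.1 and 10, 0.26 with no filter (34 genes), 0.52 with a mean of at least 100 (15 genes), 0.38 after TMM rescaling, and -0.60 to 1.88 with a library left out. Over all genes, 9 were called lower and 0 higher; the lower count was 0 with a pseudocount of 0.1, no filter, a mean of at least 100 and the replicate block, 14 with a pseudocount of 10, and 0 to 404 with a library left out (0 to 357 higher, both highest without the library labelled WT 3). The cause was not tested.

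With the replicate block the median stayed at 0.38 and 0 genes of the list were called. The labels used here do not say whether equal numbers pair libraries. Same-numbered deviations from the group means correlated at -0.42, -0.25 and -0.40, and differently numbered ones at -0.47 to 0.55. Deviations sum to 0 within each group, so these correlations cannot decide whether the numbers pair libraries.

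The direction of single genes, none called with all libraries, turned with the pseudocount for Ivl (-0.10 at 10), Rab25 (-0.021 at 10), Evpl (-0.56 at 0.1) and Cldn4 (-0.0035 at 0.1). Leaving out libraries in turn gave log2 fold changes of -0.63 to 2.42 for Dsc3, -0.79 to 2.71 for Dsg3, -0.27 to 0.56 for Jup, -1.42 to 1.83 for Dsp, -0.59 to 0.88 for Ppl, -0.59 to 2.04 for Ivl, -0.69 to 2.01 for Evpl, -0.61 to 2.07 for Cldn1, -1.04 to 2.29 for Cdh1, -1.31 to 1.72 for Cldn4, -0.26 to 3.21 for Sfn, -1.38 to 0.38 for Trp63, -0.47 to 2.66 for Grhl3, -0.98 to 1.54 for Esrp1, -0.39 to 3.33 for Lypd3, -1.61 to 1.45 for Ly6d and -0.91 to 2.84 for Rab25, while Cdh3 (0.32 to 2.35) and Tgm1 (-2.37 to -0.56) kept their sign. Estimated depth limits the low genes, since 1 read was worth 0.392 to 0.890 normalised counts, and values of a few counts such as those of Lor, Flg and Rab25 in WT 1, WT 2 and TSP2KO 3 rest on few reads.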

Other observations

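Some genes stood apart in TSP2KO 3, where most of the list was low. Cdh3 had 131 normalised counts in TSP2KO 3, against 20.6 in WT 1 and 8.63 in WT 2, and Pkp1 had 64.1, against 48.4 and 6.28. Dsc2 had 34.7 in TSP2KO 3, against 6.70 in WT 1 and 7.06 in WT 2. Sfn had 138 in TSP2KO 3, against 104 in WT 1 and 27.5 in WT 2, while Krt14 had 157, against 553 and 180. Dsp went the other way, with 6.23 in TSP2KO 3, against 84.5 in WT 1 and 41.2 in WT 2. TSP2KO 1 and 2 were still above TSP2KO 3 for Pkp1, with 341 and 340, and for Sfn, with 1011 and 917. For Dsc2 they had 205 and 87.8. These genes were chosen after their values were seen, and with 1 library the difference has no replicate check.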
